A study of Pimephales promelas with 28 samples.

Results

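The probes described here are 294 array probes whose mean signal in liver differed the same way between phenanthrene-exposed and control female fathead minnows (Pimephales promelas) at 24, 48 and 72 h. They were chosen by their measured values, out of 9334 probes that lay well above background on at least 20 of 28 arrays. A probe was selected when the exposed mean lay at least 0.5 log2 units above the control mean at all 3 times, which 91 probes met, or at least 0.5 below it at all 3 times, which 203 met. Every level below is a log2 signal relative to the 75th percentile of its own array, and every difference is exposed minus control on that scale. The differences at the 3 times, and their average, are therefore descriptions of how the probes were selected, and they support nothing by themselves. The higher probes were 0.975% of the 9334 and the lower ones 2.17%, and nothing is read from these shares since the selection used the same contrast.

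The fish were sexually regressed females, and the liver was the only tissue measured. The control groups, with no agent and 0 ng/L, held 4, 5 and 5 arrays in order of time. The groups exposed to phenanthrene at a labelled 29 ng/L held 5, 5 and 4. Total RNA was labelled with Cy3 on single-colour Agilent arrays, and the labels do not say whether each array held a separate fish, so the p-values measure the spread between arrays, which may be technical.

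Phenanthrene is a polycyclic aromatic hydrocarbon, a class of compounds found in oil and in the products of combustion. The liver is the main site where fish oxidise such compounds with cytochrome enzymes, conjugate the products and pass them to the bile, and the aryl hydrocarbon receptor is a known switch for several of the enzymes involved. The liver of a mature female also makes the yolk precursor vitellogenin under oestrogen, while in a sexually regressed female that demand is low. None of these genes could be located among the probes, because the identifiers are contig names, gi numbers and clone names, and 0 of them matched the reference table. The members are therefore given by probe name and identifier, with no role, and the liver label could not be checked against markers. In bulk tissue, fewer cells of a type and less RNA per cell cannot be told apart.

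Of the 3 exposed arrays with unusual quality readings, exposed 24 h replicate 3 had 5127 probes well above background, the fewest of the 28 arrays, and a negative-control level of 4.23 on the log2 scale. Exposed 48 h replicate 1 and exposed 72 h replicate 4 had bright-corner control spots at 17.87 and 19.00, where the other arrays stayed near the control median of 11.06. Exposed 72 h replicate 4 also had a negative-control level of 3.47 and the highest 75th percentile signal, 1253 beside a median of 277. The results are given with all 28 arrays, and some of them also with the other 25. Where no value over the 25 is given, the dependence on these 3 arrays is not shown. The part these arrays play beyond the values given was not tested.

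The 91 higher probes lay a median of 1.23 above control at 24 h, 1.16 at 48 h and, by 72 h, 0.92. The 203 lower probes had median differences of -0.74 at 24 h, -1.02 at 48 h and -0.79 at 72 h. Over all 9334 probes the medians were -0.08, -0.05 and -0.03. With a stricter minimum of 0.75 at every time, 42 higher and 46 lower probes were left, and with a minimum of 1.0 there were 19 and 12. The direction split depends on the scaling: with each array's median in place of its 75th percentile, 165 probes were higher and 89 lower. The log2 values that the authors deposited gave 124 higher and 101 lower. Their normalization is not given and some probes have no value in them, so the cause of that change was not tested. Median scaling moved the median averaged difference of all probes from -0.06 to 0.08.

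Among the higher probes, UF_Ppr_AF_107092 (gi_72485809) had the largest minimum difference. On the control arrays it read -2.45, -2.17, -1.74 and -1.19 after 24 h, -0.61, -0.41, 0.05, 0.48 and 2.49 at 48 h, and -1.90, -1.88, -1.23, -0.65 and 3.09 by 72 h. On the exposed arrays it read -2.69, -1.55, 0.29, 1.42 and 1.69 after 24 h, -1.18, 0.50, 0.53, 4.51 and 5.32 at 48 h, and -0.50, -0.38, 1.82 and 8.75 by 72 h. Control 72 h replicate 3, at 3.09, stood above the other controls of its time. The reading of 8.75 came from exposed 72 h replicate 4, 1 of the 3 arrays with unusual quality readings. The groups overlapped at every time. The averaged difference was 2.07 with a standard error of 0.85, after differences of 1.72, 1.54 and 2.94 at the 3 times. Its differences over the other 25 arrays were 1.32, 0.69 and 0.83, with an average of 0.95.

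UF_Ppr_AF_118032 (contig FJU.782.C1) came next and had a different profile over the arrays. Its control levels were -2.21, -2.17, -2.09 and -1.33 after 24 h, -3.54, -0.28, 0.44, 0.96 and 3.72 at 48 h, and -3.23, -3.11, -0.96, -0.84 and 4.03 by 72 h. Its exposed levels were -4.11, -1.30, 0.37, 0.52 and 2.81 after 24 h, 0.04, 1.36, 1.41, 1.91 and 4.88 at 48 h, and -0.51, -0.17, 0.01 and 3.17 by 72 h. The 4 controls at 24 h lay close together, while the controls at 48 and 72 h spread over more than the exposed arrays, and the groups overlapped at every time. Averaged over times the difference was 1.57 with a standard error of 0.79, after differences of 1.61, 1.66 and 1.45 at the 3 times.

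UF_Ppr_AF_100986 (contig FJU.13563.C1) followed the same arrays. Control levels ran -3.53, -2.24, -2.16 and -1.85 after 24 h, -5.15, -0.32, -0.11, 0.31 and 2.61 at 48 h, and -3.09, -2.55, -1.46, -1.11 and 3.38 by 72 h. Exposed levels ran -3.51, -1.22, -0.43, -0.07 and 2.05 after 24 h, -0.43, -0.24, 0.59, 2.56 and 5.22 at 48 h, and -0.98, -0.12, 0.36 and 2.49 by 72 h. The highest control at 48 h and at 72 h again lay above several exposed arrays, and the lowest exposed array at 24 h was as low as the lowest control. Its average over the times was 1.76 with a standard error of 0.78, after differences of 1.81, 2.07 and 1.40 at the 3 times.

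UF_Ppr_AF_112347 (contig FJU.2515.C1) was dimmer, and 11 of its exposed and 9 of its control readings were well above background. Its controls were at -5.96, -4.91, -4.55 and -3.75 after 24 h, -7.09, -3.15, -2.75, -2.26 and 0.02 at 48 h, and -6.41, -5.74, -4.61, -3.67 and -0.42 by 72 h. Its exposed arrays were at -4.60, -4.41, -3.84, -2.66 and -1.44 after 24 h, -4.77, -2.13, -1.89, -0.88 and 1.42 at 48 h, and -3.45, -3.16, -2.44 and -0.88 by 72 h. Control 48 h replicate 2 was the lowest of all its arrays and the groups overlapped at every time. The averaged difference was 1.50 with a standard error of 0.69, after differences of 1.41, 1.39 and 1.69 at the 3 times.

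**Figure D1:**
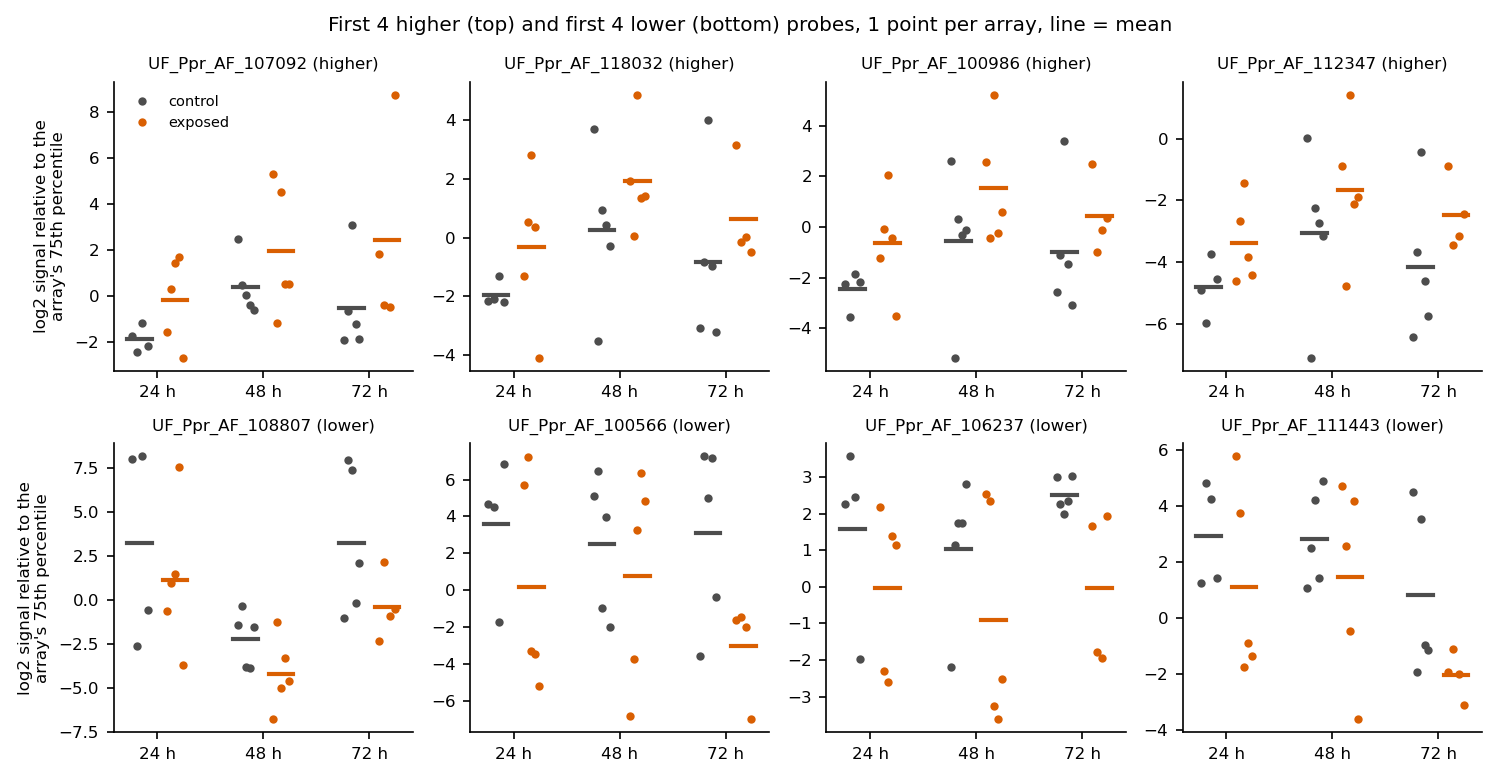
Log2 signal relative to the array's 75th percentile for the first 4 higher probes (top) and the first 4 lower probes (bottom), 1 point per array with a line at the group mean, by time. The exposed and control points overlap in nearly every panel and time, and single arrays lie far from their group.

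The next 6 higher probes, given as mean ± SD at 24, 48 and 72 h over the arrays of each group, had the same wide spread. UF_Ppr_AF_105913 had control means of 1.32 ± 1.22, 4.46 ± 3.40 and 2.95 ± 3.41 against exposed means of 3.45 ± 3.08, 6.18 ± 1.97 and 4.34 ± 1.84. UF_Ppr_AF_108632 had control means of -0.77 ± 0.73, 1.60 ± 3.97 and 0.10 ± 2.69 against exposed means of 0.81 ± 2.22, 3.88 ± 3.05 and 1.46 ± 1.11. UF_Ppr_AF_109513 had control means of -4.85 ± 1.67, -2.98 ± 2.84 and -3.56 ± 2.51 against exposed means of -3.24 ± 2.31, -1.20 ± 1.64 and -2.22 ± 1.68. The control and exposed means of UF_Ppr_AF_109513 include readings that were not well above background. UF_Ppr_AF_108506 had control means of -2.93 ± 0.55, -1.07 ± 3.18 and -1.86 ± 2.10 against exposed means of -1.28 ± 2.21, 0.25 ± 1.70 and -0.58 ± 1.63. UF_Ppr_AF_106102 had control means of -1.99 ± 0.76, 0.56 ± 3.01 and -0.27 ± 2.76 against exposed means of 0.03 ± 2.43, 2.49 ± 1.93 and 0.98 ± 1.76. UF_Ppr_AF_108051 had control means of -1.28 ± 0.64, 1.29 ± 2.46 and 0.26 ± 2.60 against exposed means of 0.70 ± 1.75, 2.85 ± 2.08 and 1.48 ± 1.34. The 48 h control means of UF_Ppr_AF_108632 and UF_Ppr_AF_108506 also include a reading not well above background. Both readings came from control 48 h replicate 2, at -4.97 and -6.56. The other 48 h controls of UF_Ppr_AF_108506 read -0.77, 0.14, 0.36 and 1.51, beside its exposed mean of 0.25. In all 6 probes the SD of the control arrays was smaller at 24 h than at 48 and 72 h. Each of the 6 kept its exposed mean above its control mean at every time, as the selection required, with an SD often as large as the difference. The other 81 higher probes had differences of 0.51 to 2.62 at 24 h, 0.51 to 2.47 at 48 h and at 72 h 0.51 to 2.59.

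Among the lower probes, UF_Ppr_AF_108807 (contig FJU.118.C1) came first. On the control arrays it read -2.63, -0.56, 8.01 and 8.20 after 24 h, -3.86, -3.83, -1.56, -1.41 and -0.34 at 48 h, and -1.04, -0.17, 2.09, 7.41 and 7.96 by 72 h. On the exposed arrays it read -3.68, -0.63, 0.98, 1.46 and 7.60 after 24 h, -6.79, -5.04, -4.61, -3.28 and -1.25 at 48 h, and -2.35, -0.92, -0.48 and 2.16 by 72 h. The probe lay near 8 on 2 controls at 24 h, 2 controls at 72 h and 1 exposed array at 24 h, and far lower on the rest. Averaged over times the difference was -2.58 with a standard error of 1.24, after differences of -2.11, -1.99 and -3.65 at the 3 times. Its differences over the other 25 arrays were -2.19, -1.34 and -3.62.

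UF_Ppr_AF_100566 (clone nd_SN_REV-F08.g) also took widely separated levels. Its controls read -1.69, 4.53, 4.70 and 6.81 after 24 h, -1.97, -0.95, 3.98, 5.09 and 6.44 at 48 h, and -3.56, -0.36, 5.00, 7.15 and 7.26 by 72 h. Its exposed arrays read -5.18, -3.44, -3.29, 5.71 and 7.22 after 24 h, -6.77, -3.72, 3.26, 4.82 and 6.38 at 48 h, and -6.98, -1.97, -1.59 and -1.43 by 72 h. High readings above 3 and low readings below 0 occurred in every group except the exposed arrays at 72 h, all of which were low. Its average over the times was -3.74 with a standard error of 1.64, after differences of -3.38, -1.73 and -6.09 at the 3 times. All 14 control readings and 9 of the 14 exposed readings were well above background. Over the 25 arrays its average was -2.37 and its difference at 48 h was 0.16, on the other side of 0.

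UF_Ppr_AF_106237 (contig FJU.4715.C2) was separated at 1 time. Control readings were -1.98, 2.25, 2.44 and 3.57 after 24 h, -2.20, 1.14, 1.74, 1.75 and 2.80 at 48 h, and 1.98, 2.26, 2.34, 2.99 and 3.02 by 72 h. Exposed readings were -2.60, -2.30, 1.16, 1.40 and 2.18 after 24 h, -3.62, -3.27, -2.53, 2.35 and 2.54 at 48 h, and -1.93, -1.79, 1.67 and 1.93 by 72 h. At 72 h all 5 controls lay above all 4 exposed arrays, while at 24 and 48 h 1 control lay near the low exposed arrays. The averaged difference was -2.03 with a standard error of 0.77, after differences of -1.60, -1.95 and -2.55 at the 3 times.

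UF_Ppr_AF_111443 (contig FJU.12452.C1) completed the first 4 lower probes. Over the controls it measured 1.25, 1.46, 4.25 and 4.82 after 24 h, 1.09, 1.42, 2.52, 4.24 and 4.92 at 48 h, and -1.93, -1.13, -0.94, 3.56 and 4.53 by 72 h. Over the exposed arrays it measured -1.74, -1.35, -0.87, 3.78 and 5.79 after 24 h, -3.60, -0.45, 2.57, 4.21 and 4.71 at 48 h, and -3.08, -1.99, -1.93 and -1.09 by 72 h. All 4 exposed arrays at 72 h were low, 3 of the 5 controls of that time were low as well, and the highest exposed array at 24 h lay above every control. Averaged over times the difference was -2.004 with a standard error of 0.94, after differences of -1.82, -1.35 and -2.84 at the 3 times.

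The next 6 lower probes are given in the same way. The exposed means of all but UF_Ppr_AF_116967 include readings that were not well above background, most often for UF_Ppr_AF_102334 and UF_Ppr_AF_118143. UF_Ppr_AF_102334 had control means of -2.43 ± 1.09, -2.55 ± 1.36 and -2.72 ± 1.71 against exposed means of -3.69 ± 1.83, -4.21 ± 1.57 and -3.96 ± 0.58. UF_Ppr_AF_108270 had control means of 0.65 ± 0.64, 0.76 ± 0.54 and -0.01 ± 0.83 against exposed means of -0.52 ± 1.63, -0.39 ± 0.48 and -2.33 ± 3.12. UF_Ppr_AF_111250 had control means of -0.42 ± 0.20, -0.27 ± 0.99 and -1.07 ± 0.33 against exposed means of -1.55 ± 0.81, -1.64 ± 1.45 and -2.47 ± 2.98. On exposed 72 h replicate 4, UF_Ppr_AF_108270 read -6.80 and UF_Ppr_AF_111250 read -6.87. UF_Ppr_AF_118631 had control means of -1.72 ± 1.69, -1.72 ± 1.43 and -2.48 ± 1.45 against exposed means of -2.98 ± 0.63, -3.06 ± 1.66 and -3.60 ± 2.40. UF_Ppr_AF_118143 had control means of -2.30 ± 0.89, -3.28 ± 0.52 and -3.18 ± 0.85 against exposed means of -3.78 ± 0.68, -4.38 ± 1.43 and -4.44 ± 1.68. UF_Ppr_AF_116967 had control means of 1.44 ± 1.92, 0.98 ± 0.99 and 0.76 ± 1.33 against exposed means of 0.01 ± 1.22, -0.06 ± 1.16 and -0.37 ± 2.28. That array also read -6.71 for UF_Ppr_AF_118631 and -6.78 for UF_Ppr_AF_118143. Without the 3 arrays UF_Ppr_AF_111250 differed by 0.07 at 72 h, above 0, UF_Ppr_AF_118631 by -0.08, and the other 4 stayed below 0. The other 193 lower probes had differences of -3.06 to -0.51 at 24 h, -2.30 to -0.50 at 48 h and -2.51 to -0.50 at 72 h.

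The threshold of 0.5 fell inside a continuous range of values. Just inside it on the higher side were UF_Ppr_AF_101516, with 0.5068 at 72 h, UF_Ppr_AF_111418, with 0.5099 at 24 h, and UF_Ppr_AF_108090, with 0.5117 at 48 h. Just outside were UF_Ppr_AF_114756 and UF_Ppr_AF_112213, with 0.4981 and 0.4975 at 24 h, and UF_Ppr_AF_118933, with 0.4969 at 72 h. On the lower side UF_Ppr_AF_105429 and UF_Ppr_AF_106084, with -0.5011 and -0.5013 at 72 h, and UF_Ppr_AF_111257, with -0.5013 at 48 h, were just inside. UF_Ppr_AF_104081 and UF_Ppr_AF_100387, with -0.4989 and -0.4988 at 24 h, and UF_Ppr_AF_111107, with -0.4976 at 48 h, were just outside.

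Overlap between the arrays was counted at each time. At 24 h, 0 of the 91 higher probes had every exposed array above every control, beside 45 of all 9334 probes (0.482%); at 48 h it was again 0, beside 28 (0.3%), and at 72 h 0, beside 83 (0.889%). Of the 203 lower probes, 3 had every exposed array below every control at 24 h, beside 92 of all probes (0.986%). The count was 3 at 48 h, beside 40 (0.429%), and 4 at 72 h, beside 82 (0.879%). The selection used these contrasts, so nothing is read from the counts.

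The lower probes without overlap at 24 h were UF_Ppr_AF_113449, UF_Ppr_AF_117948 and UF_Ppr_AF_109360. UF_Ppr_AF_109360 read -3.16, -2.92, -2.83 and -2.42 on the controls and -4.13, -3.92, -3.87, -3.60 and -3.44 on the exposed arrays of that time. Of those 5 exposed readings, 3 were not well above background. Without the 3 arrays the 72 h differences of these probes were 0.45, 0.01 and 0.02, above 0. At 48 h the probes were UF_Ppr_AF_108151, UF_Ppr_AF_108270 and UF_Ppr_AF_107470. UF_Ppr_AF_107470 (contig FJU.2894.C1) read 2.45, 2.91, 3.24, 3.27 and 4.22 on the controls of 48 h and -0.50, 0.04, 0.98, 1.72 and 2.33 on the exposed arrays. UF_Ppr_AF_108151 (gi_73460989) read -2.09, -1.76, -1.76, -1.67 and -1.38 on those controls and -4.41, -3.64, -3.21, -2.55 and -2.37 on those exposed arrays, 1 of which was not well above background. At 72 h UF_Ppr_AF_108151 was again without overlap, as were UF_Ppr_AF_111257, UF_Ppr_AF_111520 and UF_Ppr_AF_106237. For UF_Ppr_AF_108151 the groups nearly touched at 72 h, with the lowest control at -2.218 and the highest exposed array at -2.229. The averaged difference of UF_Ppr_AF_108151 was -1.07 with a standard error of 0.26.

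In a limma fit of the 6 group means over all 9334 probes, 0 probes (0%) passed an adjusted p of 0.05 (Benjamini-Hochberg) at 24, 48 or 72 h or for the average of the 3 times, members included. The lowest adjusted p for the averaged difference of any member was 0.807. At an unadjusted p under 0.05, 243 probes lay beyond it at 24 h, 398 at 48 h, 524 at 72 h and 461 for the average. Of the members, 25 higher and 115 lower probes had an unadjusted p under 0.05 for the average, a contrast that the selection used.

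The mean of the 91 higher probes on each array, taken as a deviation from the control mean of the same time, ranged over controls from -2.08 (48 h replicate 2) through a median of -0.06 to 2.61 (72 h replicate 3). Over the exposed arrays it ranged from -0.46 through 1.003 to 3.27 (48 h replicate 3), and 12 of 14 were above 0. The 5 controls at 48 h and the 5 at 72 h therefore spanned much of the range of the exposed arrays, while the 4 controls at 24 h lay between -0.36 and 0.19. For the 203 lower probes the controls ranged from -0.65 through 0.06 to 0.70 and the exposed arrays from -3.63 through -0.79 to 0.11. At 72 h, 1 exposed array lay at -3.63 and the other 3 at -0.19, -0.13 and 0.11, inside the range of the controls. That array and the lowest at 48 h, at -2.64, were the 2 with raised bright corners.

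**Figure D2:**
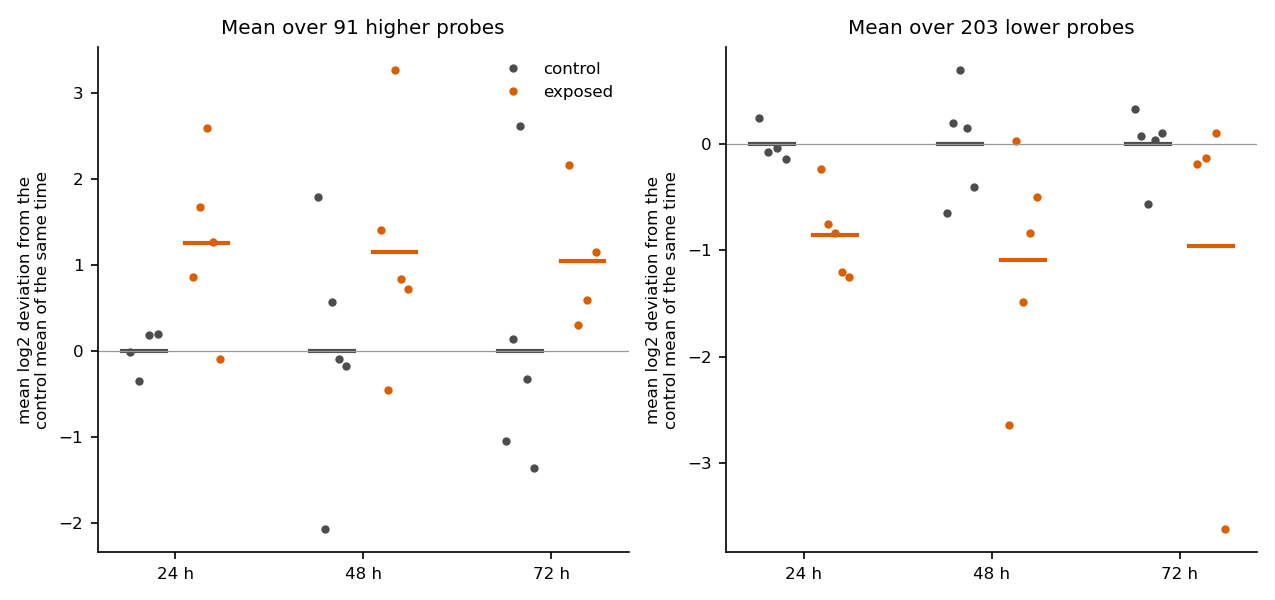
Mean log2 deviation from the control mean of the same time over the 91 higher probes (left) and the 203 lower probes (right), 1 point per array with a line at the group mean. Controls at 48 and 72 h span much of the exposed range on the left, and on the right exposed 72 h replicate 4 lies at -3.63 while the other exposed arrays of 72 h lie near 0.

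The arrays came from 5 slides, each of which held both exposed and control arrays of at least 1 time. At 24 h the median difference within slide 1 was 1.53 for the higher and -0.49 for the lower probes, within slide 2 it was 1.73 and -1.02, and within slide 5, with 1 array of each kind, -0.49 and -0.79. At 48 h slide 3 gave 1.40 and -1.72, and slide 4 gave 2.50 and -1.05. At 72 h slide 1, with 1 array of each kind, gave 3.72 and -0.60, slide 5 gave 1.65 and -1.70, and slide 2 gave -1.56 and 0.35. With the 3 arrays left out, slide 2 at 24 h gave 1.01 and -1.26, slide 3 at 48 h gave 0.20 and -0.27, and slide 5 at 72 h gave 1.47 and 0.34, each with 1 exposed array left. The 72 h values of slide 2 rest on 1 exposed array and 2 controls. Of these, control 72 h replicate 3 had the highest mean of the higher probes among all controls, at 2.61. Within slide 2 at 72 h both sets lay on the side opposite to the pooled differences, and in slide 5 at 24 h the higher probes did. In slide 5 at 72 h the lower probes did so once exposed 72 h replicate 4 was left out.

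Without the 3 arrays the selection gave 97 higher probes, 56 of them among the 91, and 33 lower probes, 16 of them among the 203. The higher probes then had median differences of 0.87, 1.17 and 1.09, and 86 of the 91 were above 0 at 72 h. The lower probes had medians of -0.77 at 24 h, -0.65 at 48 h and 0.10 at 72 h, where 81 of the 203 were still below 0. The median of the lower probes at 72 h thus changed side when exposed 72 h replicate 4 was left out with the other 2 arrays. Leaving out exposed 72 h replicate 4 alone gave 35 lower probes. The higher count was 49 without exposed 72 h replicate 1 and 56 without control 72 h replicate 5.

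**Figure D3:**
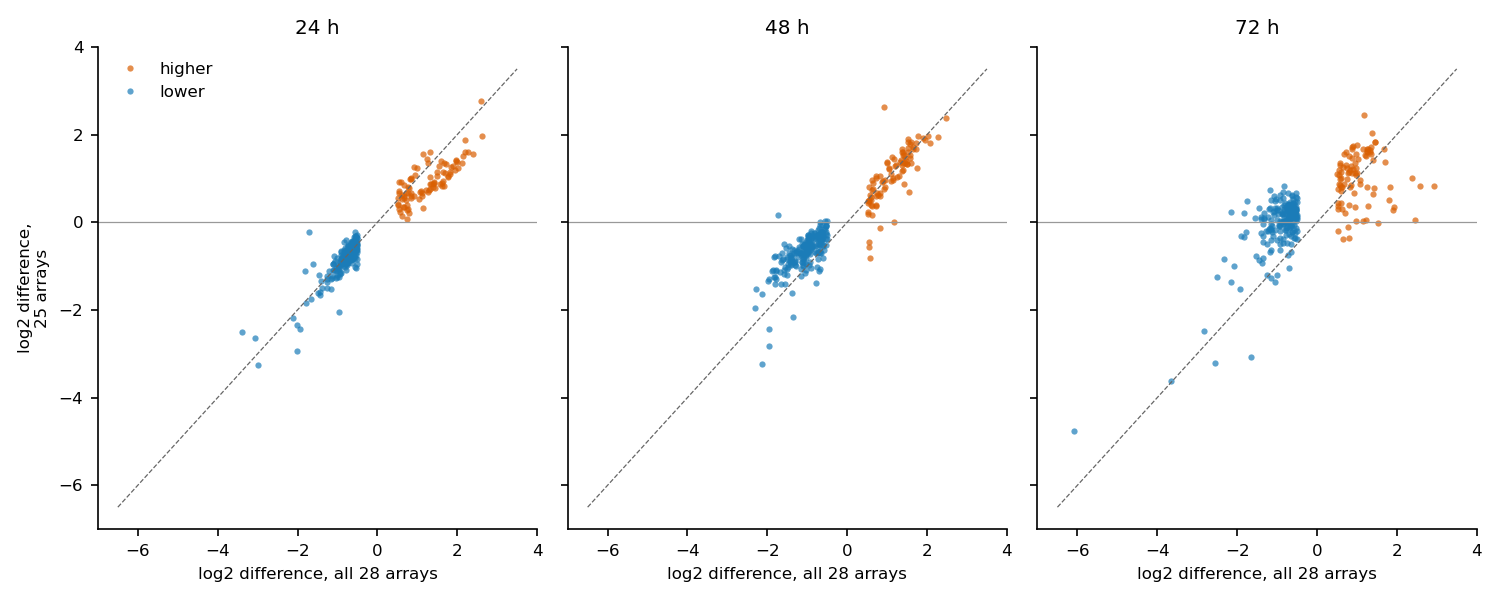
Exposed minus control differences of the 294 probes on the log2 scale at 24, 48 and 72 h, with all 28 arrays on the horizontal axis and without the 3 arrays on the vertical axis; the dashed line marks equality. Lower probes sit near the line at 24 h and around 0 on the vertical axis at 72 h.

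Of the 91 higher probes, 11 met the selection both without the 3 arrays and with normexp background correction of the raw signal. They were UF_Ppr_AF_107092, UF_Ppr_AF_118032, UF_Ppr_AF_100986, UF_Ppr_AF_105913, UF_Ppr_AF_108632, UF_Ppr_AF_106102, UF_Ppr_AF_108051, UF_Ppr_AF_100047, UF_Ppr_AF_114273, UF_Ppr_AF_103908 and UF_Ppr_AF_115907. Of the 203 lower probes, 9 did so, namely UF_Ppr_AF_108807, UF_Ppr_AF_106237, UF_Ppr_AF_111443, UF_Ppr_AF_108270, UF_Ppr_AF_113676, UF_Ppr_AF_103513, UF_Ppr_AF_116972, UF_Ppr_AF_107470 and UF_Ppr_AF_103066. Of the 10 leading higher probes 7 were in the first set, and of the 10 leading lower probes 4 were in the second.

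The counts were set beside those from relabelled arrays, in which the exposed and control labels were exchanged at random within each time, 100 times. This is a description and no p is drawn from it. With all 28 arrays, relabelling gave 14 to 181 higher probes with a median of 57, and 23 of the 100 gave 91 or more. It gave 13 to 311 lower probes with a median of 47.5, and 3 of the 100 gave 203 or more. For both directions together it gave 42 to 408 with a median of 112, and 4 of the 100 gave 294 or more. Without the 3 arrays, 11 of 100 relabellings gave 97 or more higher probes (median 51), 75 gave 33 or more lower probes (median 44.5), and 30 gave as many as the 130 of both directions (median 102.5).

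**Figure D4:**
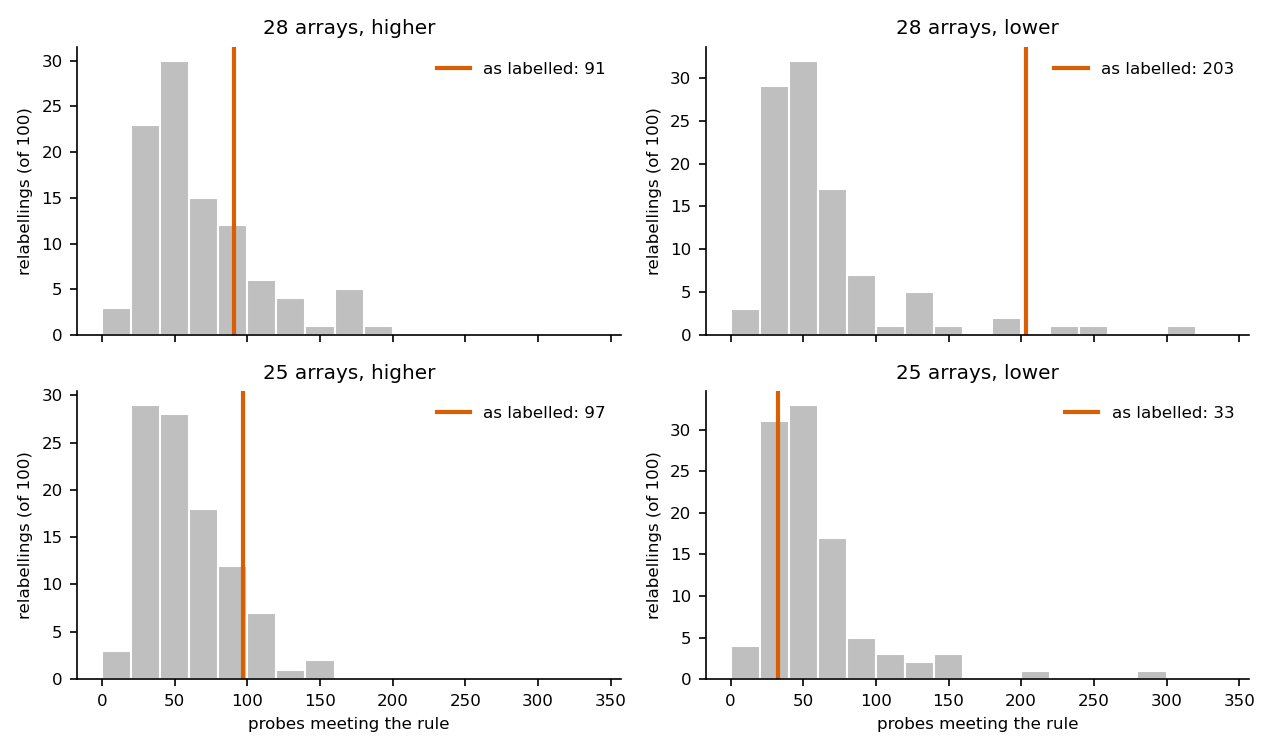
Number of probes meeting the selection in 100 relabellings of the arrays (grey), with the count under the actual labels as a line, for 28 arrays (top) and 25 arrays (bottom), higher on the left and lower on the right. The lower count of 203 lies in the right tail with 28 arrays and the count of 33 lies below the median of 44.5 with 25.

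Deviations from the group means were correlated between probes over the 28 arrays. They are not independent of the selection, since a single outlying array in a group of 4 or 5 sets both a group mean and the deviations around it. The median correlation was 0.357 between pairs of higher probes, 0.566 between pairs of lower probes and 0.019 over all 9334 probes, and probes on the same arrays share labelling, hybridisation and scaling. Over the 25 arrays the medians were 0.423, 0.299 and 0.033. The share of pairs of lower probes at 0.8 or more was 20.5% over 28 arrays and 4.68% over 25, and that of higher probes 30.9% and 34.1%. Average-linkage clustering at a correlation distance of 0.6, a value chosen after the data were seen, put 57 of the 91 higher probes in 1 cluster with a median correlation of 0.909. The same step put 155 of the 203 lower probes in 1 cluster with 0.739. For these clusters the 25 arrays gave 0.923 and 0.501.

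**Figure D5:**
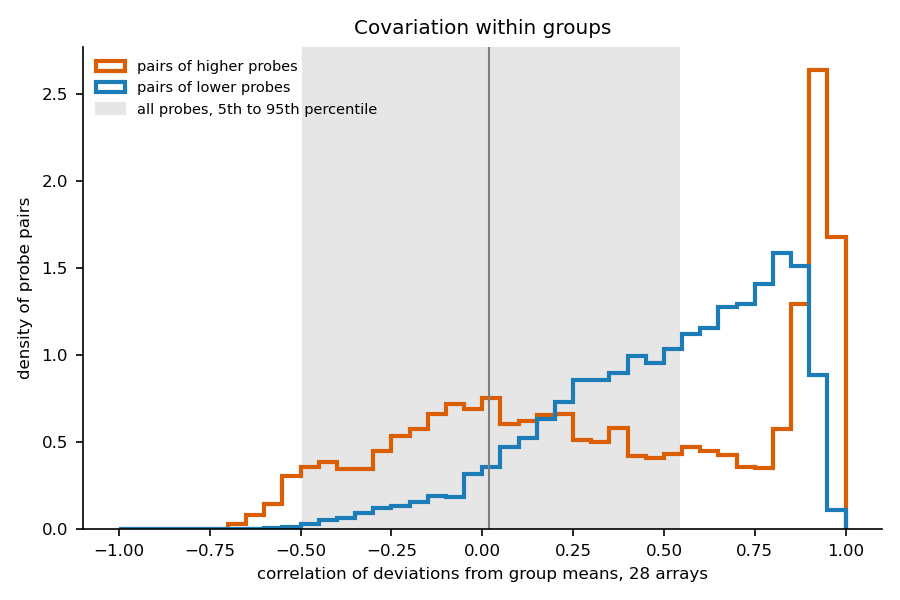
Distribution of the correlation of deviations from group means over 28 arrays for pairs of higher probes and pairs of lower probes; the grey band spans the 5th to 95th percentile of all probes, from -0.49 to 0.54, with a line at their median. Pairs of higher probes peak above 0.9, and pairs of lower probes lie mostly above the median of all probes.

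Of the 57 probes in the large higher cluster, 46 met the selection without the 3 arrays, while of the 155 in the large lower cluster 2 did. UF_Ppr_AF_118032 is the first probe of the higher cluster. UF_Ppr_AF_107092 belonged to a second one of 12 probes, of which 1 met the selection without the 3 arrays. The mean of the 57 probes followed the same controls as the whole set, with -3.68 for the lowest control and 3.67 for the highest, against -0.93 to 4.43 over the exposed arrays. The mean profile of the higher cluster was shared by 149 of all 9334 probes at a correlation of 0.8 or more, of which 52 were members and 97 were not. The 97 had median differences of 0.72, 0.75 and 0.23. The lower cluster was followed by 408 probes, 111 members and 297 others.

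The probes most like UF_Ppr_AF_107092 over the 28 arrays were UF_Ppr_AF_112680 (correlation 0.930), which was no member with a difference of 0.45 at 24 h, and the members UF_Ppr_AF_106438 (0.878) and UF_Ppr_AF_116072 (0.870). For UF_Ppr_AF_108807 the nearest were UF_Ppr_AF_112261 (0.627), UF_Ppr_AF_102734 (0.624) and UF_Ppr_AF_111589 (0.608), none of them a member.

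The selection on group means that include the controls favours probes of large spread, so the spread among controls is a description of what was selected. For the higher probes the median SD within the control groups was 1.96, beside 0.58 for all 9334 probes, and 63 of the 91 (69.2%) were among the 5% of probes with the largest control SD. In the large higher cluster the median was 2.09 and 50 of 57 (87.7%) were among that 5%. The lower probes had a median control SD of 0.75, and 16 of 203 (7.88%) were among the 5%.

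Comparisons between times used no exposed minus control difference, but they reuse the group means that entered the selection. Of the 91 higher probes, 57 formed 1 correlated cluster. The counts above 0 are therefore descriptions, in which the probes are not separate observations. Between the controls of 48 and 24 h the higher probes lay a median of 1.73 higher at 48 h, with 77 of 91 above 0. At 72 h against 24 h the median was 0.84 (80 of 91 above 0), and at 72 h against 48 h it was -0.70 (19 of 91 above 0). Over the exposed arrays the same comparisons gave 1.65, 0.65 and -1.02, with 78, 75 and 24 of 91 above 0. In limma 0 members and 0 of all probes (0%) passed an adjusted p of 0.05 (Benjamini-Hochberg) in any of the 6 time comparisons. At an unadjusted p under 0.05 there were 461, 333 and 332 probes of 9334 for the controls and 1084, 786 and 548 for the exposed arrays, in the order given. The higher members among them numbered 13, 1 and 1 of 91 for the controls and 12, 3 and 2 for the exposed arrays. The lower members numbered 1, 2 and 3 of 203 for the controls and 9, 4 and 2 for the exposed arrays. Over all probes the shares were 4.94%, 3.57% and 3.56% for the controls and 11.6%, 8.42% and 5.87% for the exposed arrays. The lower probes had medians of -0.15, -0.60 and -0.39 over the controls and -0.48, -0.67 and -0.20 over the exposed arrays. These exposed medians include exposed 48 h replicate 1 and exposed 72 h replicate 4. The lower probes deviated there by a mean of -2.64 and -3.63 from the controls of the same time. All exposed time comparisons include the 3 arrays with unusual quality readings, and no values without them are given. Over all 9334 probes the medians were -0.07, -0.09 and -0.02 for the controls and -0.06, -0.04 and -0.004 for the exposed arrays. The time of 48 h was largely confounded with scan day and slide, since 8 of its 10 arrays were scanned on the first scan day, on slides 3 and 4. Every array of 24 and 72 h was scanned on the second, on slides 1, 2 and 5, each of which held both times. Fitting the slide as a block, which covers scan day too, gave other medians. Slides 3 and 4 held arrays of 48 h only. In that fit, 48 h is therefore tied to the other times only through control 48 h replicate 1 and exposed 48 h replicate 5. The medians of the higher probes were then 2.54, 0.92 and -1.57 for the controls and 3.28, 1.05 and -2.10 for the exposed arrays. Again 0 probes passed in limma, with 177 to 774 at an unadjusted p under 0.05. The medians of the lower probes were 0.08, -0.42 and -0.54, and -0.26, -0.61 and -0.30. Within the second scan day the difference between 48 and 24 h rests on 1 array of 48 h in each arm. It was 4.26 for the higher and -0.85 for the lower probes over the controls, and 1.22 and 0.23 over the exposed arrays.

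The 2 directions also differed in level and kind of identifier, as a description. The median level was -1.17 for the higher and -2.39 for the lower probes, beside -0.73 for all 9334, and 41.8%, 10.3% and 50.5% of them were well above background on all 28 arrays. Among the higher probes 85 had contig identifiers and 6 gi numbers (6.59%), and among the lower probes 137 had contigs, 65 gi numbers (32%) and 1 a clone name, beside 14.7% gi numbers over all probes. The median averaged difference was 1.12 for the higher and -0.89 for the lower probes, and under normexp it was 0.61 and -0.45. A lower probe that drops on a single exposed array can fail to be well above background on all 28, so that share is not independent of the selection. The level of a probe is its mean over all 28 arrays, exposed arrays included. It therefore holds part of the selected difference and is not independent of the selection either. Contig number FJU_SB_30.1 was carried by 2 higher probes and 1 probe that was no member. Contig numbers FJU.5398, FJU.544 and FJU.7720 were each carried by 2 lower probes. Over all 9334 probes, 735 contig numbers were carried by 2 or more.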

How the data were processed

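Liver RNA was measured on 28 arrays in 6 groups, given above. Per the file headers, the deposited scanner tables come from Agilent Feature Extraction 10.7.1.1, and their processed signal is a fluorescence intensity after that software's background correction. They also give the deposited median spot signal and local background, and a mark for each spot well above background. The authors also deposited a table of log2 values for the same arrays, used as an alternative, with 1 column of no sample left out. Its normalization and centring are not given in the sources used here. Its columns did not hold a value for every probe, and the column with the fewest held 10683. Over the probes with a value, the columns correlated with their own array's log2 signal at 0.953 or more.

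The log2 processed signal of each of 15208 probes (15744 spots with controls) was reduced by the array's 75th percentile. Probes well above background on at least 20 arrays, 9334 in all, were kept, and spots marked as outliers (779) were kept. Exposed 72 h replicate 4 had 498 spots marked as non-uniform and exposed 48 h replicate 1 had 201, where no other array had more than 13. Precision is limited by the number of arrays per group. The 6 group means were fitted over all 9334 probes with limma 3.58.1 in R 4.3.3, with two-sided moderated tests and Benjamini-Hochberg adjustment at 0.05. The fit was checked on simulated data. Averaged differences are means of the 3 differences between exposed and control. Members of each direction were ordered by the smallest of their 3 absolute differences. The first 10 were named, with every array for the first 4, besides those nearest the threshold, those without overlap, those kept under 2 alternatives and the nearest probes by correlation.

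The members and lists were chosen with earlier results of these data known. The lists of liver and other cell type markers, aryl hydrocarbon receptor targets, oestrogen targets, oxidative stress, heat shock and lipid genes matched 0 probes by name and were not used. Replicate numbers follow the order of deposit and pair no arrays. Alternatives were other scalings, normexp with an offset of 50, other filters, marked spots left out, slide as a block, the authors' table, group medians, and arrays left out. Those for the exposed time comparisons were added after the data were seen, as were the clusters, the time differences by slide and scan day, and the differences within slides without the 3 arrays.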

Additional observations from a re-analysis of the deposited data

Results flagged for a closer look

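Among 132 sets of 4 or 5 arrays of 1 group, 10 held an array far from the others by Dixon's test. The sets share arrays, and the values that chose the probes are the same, so the count is not comparable with a chance rate. UF_Ppr_AF_107092 read 3.09 on control 72 h replicate 3, against a group median of -1.23. UF_Ppr_AF_118032 read -1.33 on control 24 h replicate 3, against -2.13, and 3.17 on exposed 72 h replicate 1, against -0.08. Exposed 72 h replicate 1 also stood above its group for UF_Ppr_AF_109513 at 0.30, for UF_Ppr_AF_106102 at 3.60 and for UF_Ppr_AF_108051 at 3.47. UF_Ppr_AF_108506 read -6.56 on control 48 h replicate 2, against 0.14. UF_Ppr_AF_100566 read -6.98 on exposed 72 h replicate 4, against -1.78, and UF_Ppr_AF_102334 read -1.46 on exposed 48 h replicate 2, against -4.92. The mean of the lower probes on exposed 72 h replicate 4 was -3.63, against -0.16.

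Outside the measured probes, the bright-corner control spots of exposed 48 h replicate 1 read 17.87 on the log2 scale, and those of exposed 72 h replicate 4 read 19.00, above the control median of 11.06 and the highest control of 11.85. Both arrays were the lowest of their group for the mean of the lower probes, and the link between these values was not tested.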

How the results depend on the processing

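With all 28 arrays 91 probes were higher and 203 lower. Median scaling gave 165 and 89, normexp gave 22 and 43, and probes well above background on all 28 arrays gave 38 and 21. With that filter 4710 probes were eligible, and the shares were 0.807% and 0.446%, beside 0.975% and 2.17% of 9334. The lower count was 101 in the authors' table, 90 with group medians and 33 without the 3 arrays of doubtful quality. The cause of these changes was not tested. Leaving out 1 array at a time gave 49 to 133 higher and 35 to 262 lower probes. The lowest higher counts were 49 without exposed 72 h replicate 1 and 56 without control 72 h replicate 5, and the lowest lower count was 35 without exposed 72 h replicate 4. Without control 48 h replicate 2 there were 69 higher probes, of which 49 were among the 91. The counts of probes passing in limma for the averaged difference, between control times and between exposed times were 0 under every alternative that was run, leave-one-out values included (0 to 0). The averaged difference changed sign for 1 higher probe without the 3 arrays, and for 2 higher and 2 lower probes with group medians. For the rest of the 294 probes it kept its sign. This supports nothing, since the selection required 3 differences of the same sign. Without the 3 arrays, 56 of the 91 higher and 16 of the 203 lower probes still met the selection. With group medians 36 higher and 40 lower probes did. Replicate numbers follow the order of deposit and pair no arrays. With slide as a fixed block, which matches arrays of a slide, 109 probes were higher, 171 lower and 0 passed. Readings not well above background limit single probes, and they are counted beside only some of the named ones.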
